A study of Homo sapiens with 12 samples.

Results

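The genes SPINT1, SPINT2, ST14, EPCAM, CLDN1, CLDN3, CLDN4, CLDN7, ESRP2 and ELF3, which act at the surface and the cell-cell contacts of epithelia or control the epithelial state, were followed across 6 culture conditions of MDA-MB-231 breast cancer cells. They were chosen by symbol, and every probe with one of these symbols was taken, which gave 11 of 47231 probes and 10 of 31334 gene symbols. SPINT1 had 2 probes and each of the other genes had 1. EPCAM also stands in the table under its older symbol TACSTD1, with 2 more probes, which lie outside this choice and were added after their values had been seen.

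MDA-MB-231 is an established line from a human breast carcinoma. Total RNA was hybridized to 12 Illumina HumanHT-12 BeadChips, 2 for each condition, to learn how cell density, the amount and kind of serum and the medium affect gene expression. The condition called dense MEM here was MEM with 10% FBS at 90% confluence, and sparse MEM was the same medium and serum at 50% confluence. The other 4 were all at 90% confluence: MEM with 0.1% FBS (low serum), MEM with 10% horse serum (HS), DMEM with 10% FBS, and RPMI-1640 with 10% FBS. All 12 arrays are labelled as parental cells with no other treatment. The labels do not say whether the 2 arrays of a condition came from separate cultures, so that the p-values measure only the spread between these arrays, which may be technical. Signals are log2 values of quantile-normalized intensities, and a difference of 1 stands for 2-fold.

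In epithelia, claudins are the membrane proteins that seal the tight junction and set which ions pass between cells. Matriptase, the product of ST14, is a membrane-anchored serine protease, and the Kunitz-type inhibitors HAI-1 (SPINT1) and HAI-2 (SPINT2) hold it and related proteases in check. EpCAM is an epithelial adhesion protein that binds claudin-7, ESRP2 directs the epithelial pattern of splicing, and ELF3 is an epithelium-specific ETS transcription factor. MDA-MB-231 is commonly counted among the claudin-low breast cancer lines.

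The promoters of CLDN7 and CLDN1 are shown, which were picked among the members after their signals had been seen. Other claudins that moved, such as CLDN11 and CLDN15, were not looked up. The repressors of epithelial genes SNAI1, SNAI2, ZEB1 and ZEB2, whose levels are given further on, bind E-boxes of the form CACCTG. RefSeq promoter windows on GRCh38.p14, from 250 bases before to 50 bases after the start, were found for 6 of the 10 genes (SPINT1, CLDN1, CLDN3, CLDN4, CLDN7 and ELF3), and for CLDN7 and SPINT1 there were 2 windows each. Both CLDN7 windows and the CLDN1 window are printed in the direction of transcription, with CACCTG or its reverse complement CAGGTG in capitals.
CLDN7, chr17:7262429-7262728, minus strand: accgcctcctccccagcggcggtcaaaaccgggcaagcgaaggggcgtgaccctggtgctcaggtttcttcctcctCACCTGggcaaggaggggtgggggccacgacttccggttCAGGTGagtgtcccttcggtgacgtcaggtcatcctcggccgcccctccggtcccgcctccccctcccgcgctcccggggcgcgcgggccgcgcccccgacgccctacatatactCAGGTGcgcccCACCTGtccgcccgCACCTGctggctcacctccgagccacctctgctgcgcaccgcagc
CLDN7, chr17:7263164-7263463, minus strand: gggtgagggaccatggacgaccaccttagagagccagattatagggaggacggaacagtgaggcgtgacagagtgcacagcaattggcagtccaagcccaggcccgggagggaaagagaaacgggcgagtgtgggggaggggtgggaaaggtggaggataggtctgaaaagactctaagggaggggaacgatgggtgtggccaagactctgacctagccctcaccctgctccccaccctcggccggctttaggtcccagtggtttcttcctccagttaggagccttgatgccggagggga
CLDN1, chr3:190322397-190322696, minus strand: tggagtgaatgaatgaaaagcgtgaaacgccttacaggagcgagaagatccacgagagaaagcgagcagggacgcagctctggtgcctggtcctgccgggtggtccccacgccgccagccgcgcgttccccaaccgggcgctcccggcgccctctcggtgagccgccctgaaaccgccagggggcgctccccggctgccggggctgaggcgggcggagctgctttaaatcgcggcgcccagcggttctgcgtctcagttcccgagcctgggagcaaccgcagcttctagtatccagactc
The first CLDN7 window held the motif 5 times, counted on both strands, whereas the second CLDN7 window and the CLDN1 window held it 0 times. Of 35116 windows of the same 300-base length, 20.6% held CACCTG at least once and 33 windows (0.094%) held it 5 times or more. The cut at 5 is the count of the first CLDN7 window itself, so this share describes that window and tests nothing. The wider motif CANNTG, which includes CACCTG, was present in 68.7% of the windows. CLDN3 and ELF3 had 1 match each, CLDN4 had 0, and the SPINT1 windows had 0 and 1. These matches describe the sequence and do not show that a factor binds there.

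The 2 arrays of dense MEM stood apart from the other 10. Across probes, which are not independent replicates, arrays of 1 condition correlated at 0.987 to 0.996, dense MEM with the other 10 arrays at 0.914 to 0.940, and the other conditions with each other at 0.964 to 0.991. The background of an array was taken from 446 olfactory receptor probes, genes that few cell types express, as their 95th percentile. It lay between 6.89 and 6.99, and 16891 to 20563 probes per array were above it. Markers that check the label also differed. KRT8, a keratin of simple epithelia, was at 10.04 in dense MEM and between 6.58 and 6.89 in the other conditions, where 1 of 10 arrays was above background. Of 7 markers of breast epithelium, 6 were above background on both arrays of dense MEM and 2 to 4 in the other conditions, and their summed linear signal was 2511 to 2934 against 1247 to 1548. KRT8 is among the 7 and adds to this sum. Of the 7, 3 were called higher and 1 lower against sparse MEM (11.8% and 10.8% of all symbols). Against DMEM 4 were higher and 1 lower (12% and 11.9% of all symbols). MUC1, a luminal mucin, went the other way, at 7.19 in dense MEM and 8.38 to 9.30 elsewhere. Of its 3 probes, 1 was called lower against sparse MEM and 2 against each other condition. For 8 markers of mesenchymal breast lines, the summed linear signal was 24893 to 28718 in dense MEM and 15629 to 23475 in the others. Of these 8, 5 were called higher and 2 lower against sparse MEM, where 11.8% of all gene symbols were higher and 10.8% lower. Against DMEM, 7 were higher and 0 lower (12% and 11.9% of all symbols). Against RPMI-1640, 3 were higher and 1 lower (11.2% and 10.6% of all symbols). CD44 at its brightest probe differed by -0.47 from sparse MEM and -0.93 from low serum, but by 0.43 from HS and 0.32 from DMEM. For 11 markers of melanocytes and the neural crest the summed linear signal was 2153 to 2355 in dense MEM and 3683 to 13700 in the others. SOX10, a transcription factor of that lineage, was at 8.25 in dense MEM and at 9.95 to 11.10 elsewhere, and S100B and TYRP1 were not above background on any array. Against sparse MEM, 1 of the 11 was called higher and 4 lower, where 11.8% of all gene symbols were called higher and 10.8% lower. TYR was called higher in dense MEM than in sparse MEM, HS and RPMI-1640, and lower than in low serum. SILV had signal above background in dense MEM alone. Fibroblast markers (8 genes, 844 to 1012) and blood markers (6 genes, 639 to 716) had low sums in all conditions. These lists move with the same 2 arrays as the results on SPINT2, CLDN7, EPCAM and CLDN1, and their part in those results was not tested. The labels give MDA-MB-231 for all 12 arrays, and whether all 12 hold the same cells was not tested, which bears on every difference between dense MEM and another condition. In RNA from whole cultures, fewer cells of a type and less RNA per cell cannot be told apart.

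Across the 6 conditions, SPINT2, CLDN7, CLDN1, EPCAM and ELF3 differed, and the other 5 genes stayed close to background. SPINT2 and CLDN7 were above background in dense MEM alone, EPCAM was highest there and ELF3 was lowest in low serum. CLDN1 followed another order, with its lowest signal in dense MEM and its highest in low serum and HS. By the F test of limma over 6 conditions, 5 of the 11 probes were called at an adjusted p under 0.05, where 30.1% of all probes were called. The adjusted p was 8.27e-14 for SPINT2, 1.03e-07 for CLDN7, 2.05e-07 for CLDN1, 0.0172 for EPCAM and 0.0355 for ELF3. The F test over the 5 conditions without dense MEM called 1 of the 11, CLDN1 (adjusted p = 1.05e-05), where 19.9% of all probes were called.

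**Figure D1:**
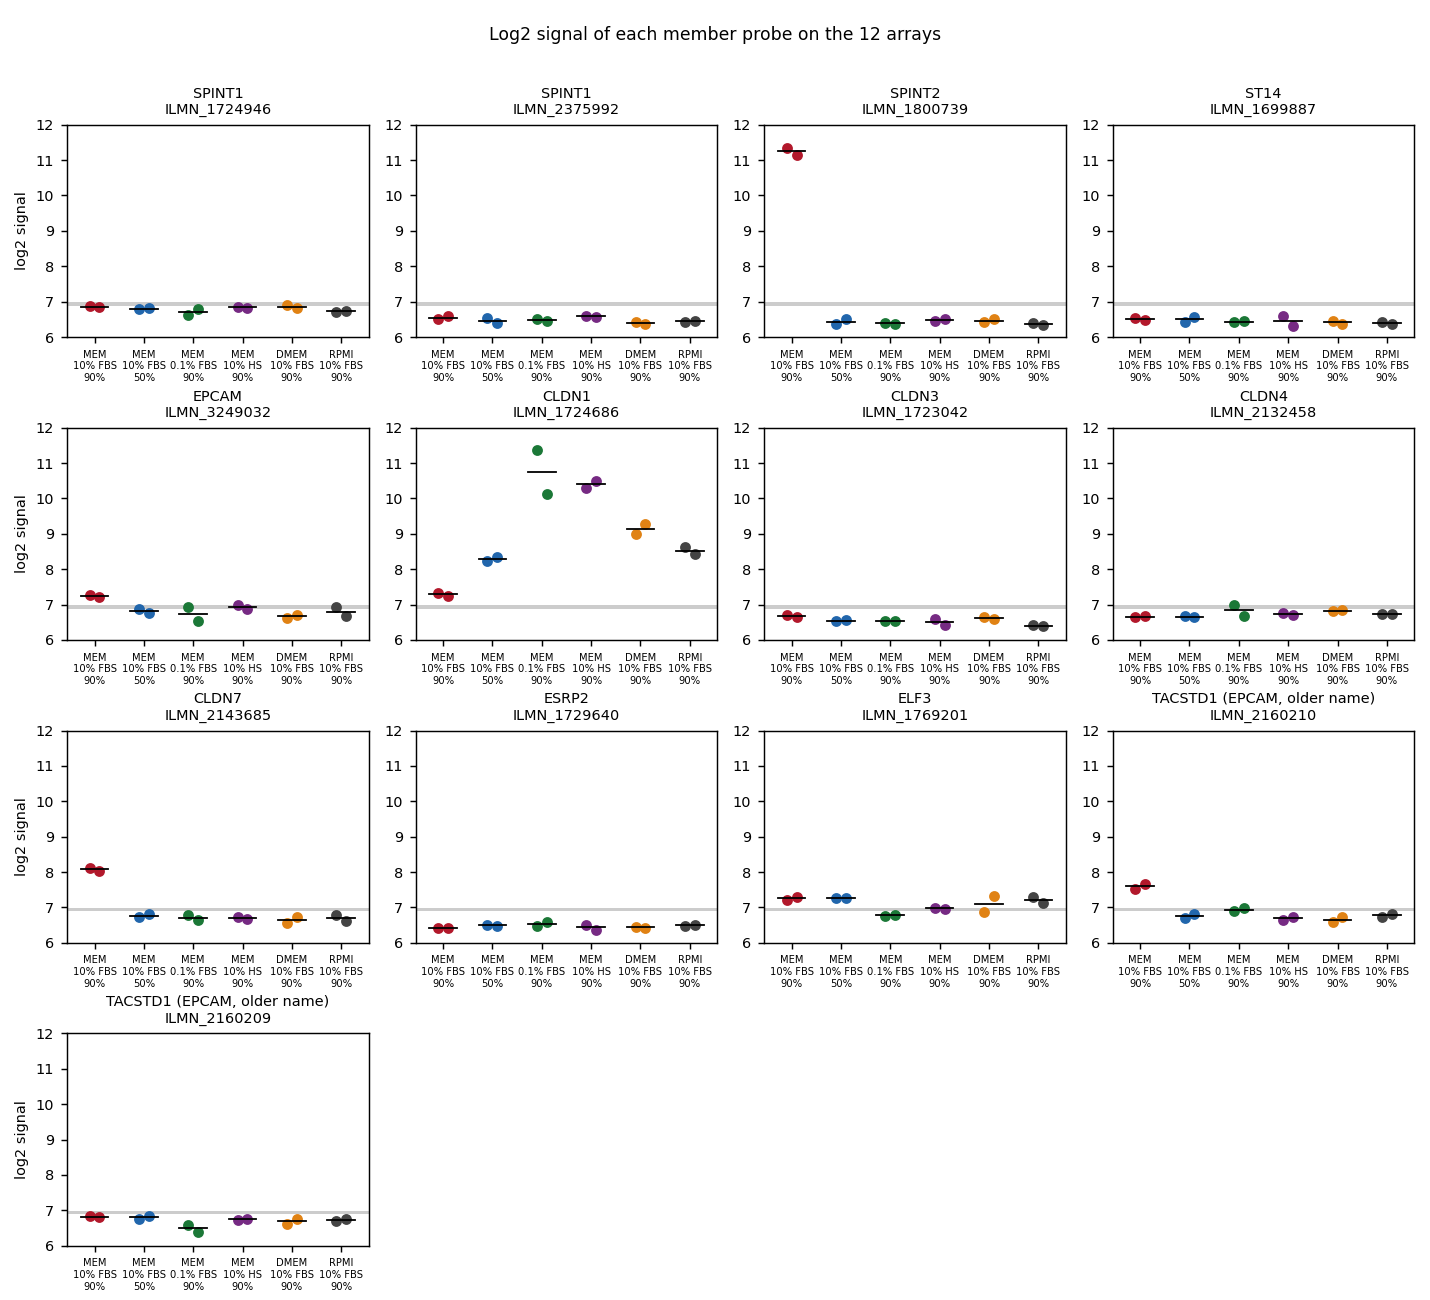
Log2 signal (vertical axis) of the 11 probes of the 10 genes and of the 2 TACSTD1 probes on the 12 arrays, by condition; points are arrays, short lines are condition means and the grey band is the range of the background over the arrays (6.89 to 6.99). SPINT2 stands at 11.14 and 11.35 in dense MEM and below the band on the other 10 arrays, and CLDN1 is above the band on all 12.

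SPINT2 had the widest span of all the members. The 2 arrays of dense MEM gave 11.35 and 11.14, those of sparse MEM 6.37 and 6.51, low serum 6.41 and 6.38, HS 6.45 and 6.51, DMEM 6.42 and 6.50, and RPMI-1640 6.40 and 6.33. Both dense MEM arrays were far above background, the other 10 were below it, and the groups did not overlap. Since the other conditions gave no signal above background, each fold is a lower bound, computed against the higher of the array's background and its own signal. SPINT2 in dense MEM was at least 19.7-fold higher than in sparse MEM (measured difference 4.81, SE 0.10, adjusted p = 4.09e-14). The bound was 19.4-fold against HS and 20.1-fold against RPMI-1640, the lowest and the highest of the 5 comparisons. In the order of the 6 means, HS came next after dense MEM at 6.48 ± 0.04 (SD, n = 2), and no neighbours below dense MEM differed in limma's test.

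SPINT1, which encodes the related inhibitor HAI-1, did not share this pattern. Its probe ILMN_1724946 read 6.63 to 6.91 over the 12 arrays, with a median of 6.81, and ILMN_2375992 read 6.38 to 6.60, with a median of 6.48. Neither was above background on any array, and limma's differences between dense MEM and each other condition lay between -0.04 and 0.15 with none called. ST14, the gene of matriptase itself, read 6.31 to 6.59 with a median of 6.44 and was likewise not above background on any array. Its differences from dense MEM were 0.00 to 0.11, with an adjusted p of 0.636 to 0.999. At this signal the data set no level for matriptase or HAI-1 and cannot order the conditions for them.

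CLDN7, a claudin of breast and other epithelia, also stood above background in dense MEM alone, at a lower signal. It read 8.12 and 8.04 in dense MEM, 6.73 and 6.81 in sparse MEM, 6.79 and 6.63 in low serum, 6.74 and 6.68 in HS, 6.57 and 6.73 in DMEM, and 6.79 and 6.61 in RPMI-1640. The dense MEM arrays did not overlap with the rest. CLDN7 was at least 2.20-fold higher in dense than in sparse MEM (difference 1.32, SE 0.10, adjusted p = 1.09e-07), and the bounds against the other 4 conditions ran from 2.15-fold (HS) to 2.24-fold (RPMI-1640). Among the 5 other conditions no neighbours in the order differed.

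EPCAM, whose protein partners claudin-7, was highest in dense MEM but close to background. Its probe read 7.26 and 7.22 in dense MEM, 6.87 and 6.77 in sparse MEM, 6.92 and 6.52 in low serum, 6.97 and 6.87 in HS, 6.63 and 6.71 in DMEM, and 6.92 and 6.68 in RPMI-1640. It was above background on both arrays of dense MEM and on 1 array each of HS and RPMI-1640. The dense MEM arrays were higher than the other 10, by 0.42 over sparse MEM (SE 0.12, adjusted p = 0.0223), 0.52 over low serum (0.00478), 0.57 over DMEM (0.0026) and 0.44 over RPMI-1640 (0.0169). No array of sparse MEM, low serum or DMEM was above background, so that against each of these EPCAM was at least 1.23-fold higher in dense MEM. Against HS the difference of 0.32 was not called (adjusted p = 0.0886), but it was when either low-serum array was left out (0.0338), with those groups fitted alone (0.0273) or with trend and robust variance (0.0489). Leaving out 1 array took the call against sparse MEM away in each of the 4 cases in which that array belonged to either group (adjusted p 0.058 to 0.142). The call against low serum was lost without the second low-serum array (0.0924), and that against RPMI-1640 without either dense MEM array or the second RPMI-1640 array (0.0774 to 0.201).

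The 2 probes under the older symbol TACSTD1 did not act alike. ILMN_2160210 read 7.53 and 7.67 in dense MEM and 6.58 to 6.97 on the other 10 arrays, with a difference of 0.84 over sparse MEM (SE 0.10, adjusted p = 1.04e-05) and 0.66 to 0.94 over the other 4 conditions, all called. Low serum had 1 array above background. Sparse MEM, HS, DMEM and RPMI-1640 had none, and against them dense MEM was at least 1.57-fold, 1.54-fold, 1.57-fold and 1.60-fold higher. ILMN_2160209 was not above background on any array (6.39 to 6.83), though its difference of 0.33 from low serum was called (adjusted p = 0.0218).

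CLDN1, which encodes a claudin of epidermal and many other epithelial tight junctions, was above background on all 12 arrays. It read 7.33 and 7.24 in dense MEM, 8.22 and 8.35 in sparse MEM, 8.61 and 8.44 in RPMI-1640, 8.99 and 9.28 in DMEM, 10.30 and 10.50 in HS, and 11.35 and 10.12 in low serum. The dense MEM arrays were the lowest and no other group overlapped them, while the low-serum arrays lay on either side of the HS arrays. CLDN1 was 2.00-fold lower in dense than in sparse MEM (difference -1.0, SE 0.25, adjusted p = 0.00852), 2.36-fold lower than in RPMI-1640 (0.00176), 3.60-fold lower than in DMEM (4.08e-05), 8.64-fold lower than in HS (1.75e-07) and 10.9-fold lower than in low serum (4.03e-08). The last value was 7.14-fold without the first low-serum array and 16.8-fold without the second, and was called in both cases. The call against sparse MEM was lost without the second dense MEM array (adjusted p = 0.0683) or without the second sparse MEM array (0.0737).

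The order of CLDN1 from the highest mean to the lowest was low serum (10.74 ± 0.87, SD, n = 2), HS (10.40 ± 0.14), DMEM (9.13 ± 0.20), RPMI-1640 (8.52 ± 0.12), sparse MEM (8.29 ± 0.09) and dense MEM (7.29 ± 0.06). Of the 5 steps between neighbours, 2 were called in limma's test, HS over DMEM (1.26, adjusted p = 0.00854) and sparse over dense MEM. The call of HS over DMEM was lost without the first DMEM array (adjusted p = 0.107) or the second HS array (0.0594). Low serum over HS (0.34, adjusted p = 0.507), DMEM over RPMI-1640 (0.61, adjusted p = 0.233) and RPMI-1640 over sparse MEM (0.24, adjusted p = 0.869) were not called. The step from DMEM to RPMI-1640 was called when either low-serum array was left out of the fit (adjusted p = 0.00422) or when those groups were fitted alone (0.00876).

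Sparse MEM gives a comparison of CLDN1 that does not use the dense MEM arrays. CLDN1 was 2.45 higher in low serum than in sparse MEM (adjusted p = 1.02e-05, where 10.8% of all probes were called) and 2.11 higher in HS (adjusted p = 9.62e-05, 9.48% of all probes called). The first difference was 1.83 without the first low-serum array and 3.07 without the second, both called. DMEM was 0.85 higher (adjusted p = 0.0517, 8.35% called) and RPMI-1640 0.24 higher (adjusted p = 0.869, 0.22% called), and neither was called. Confluence differs in these comparisons as well as serum or medium. ELF3 was the one other member called in them, with a difference of -0.48 between low serum and sparse MEM (adjusted p = 0.0199), a call that was lost without any 1 array of these groups (0.0582 to 0.114).

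CLDN3 and CLDN4, which serve as receptors of a bacterial enterotoxin and are high in many carcinomas, gave little signal. CLDN3 read 6.39 to 6.70 with a median of 6.54 and was not above background on any array. Its difference of 0.27 between dense MEM and RPMI-1640 (6.70 and 6.65 against 6.42 and 6.39) was called at an adjusted p of 0.0471, and leaving out any 1 array other than those of HS raised it to between 0.0516 and 0.259. CLDN4 read 6.64 to 7.0 with a median of 6.72, and 1 array, the first of low serum, was above background. None of its differences was called with all 12 arrays, and without the second low-serum array its difference of -0.34 between dense MEM and low serum was called (adjusted p = 0.0318).

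ELF3 and ESRP2 control transcription and splicing in epithelia. ELF3 read 7.21 and 7.30 in dense MEM, 7.27 and 7.26 in sparse MEM, 7.29 and 7.13 in RPMI-1640, 6.86 and 7.34 in DMEM, 6.99 and 6.97 in HS, and 6.76 and 6.80 in low serum. It was above background on 8 of the 12 arrays, and low serum was the one condition with no array above it. The difference between dense MEM and low serum was 0.47 (SE 0.13, adjusted p = 0.0103), or at least 1.24-fold, and its call was lost without the second dense MEM array (0.0979) or the first low-serum array (0.0505). The differences of 0.28 from HS (adjusted p = 0.152) and 0.16 from DMEM (0.504) were not called; without either DMEM array the first was (0.0441), and without the second DMEM array the other was as well (0.39, adjusted p = 0.0265). No neighbours in the order of its means differed. ESRP2 read 6.38 to 6.60 with a median of 6.48, was not above background on any array and had no called difference.

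By comparison, the called members were few in each and largely the same names, and the 5 comparisons with dense MEM share its 2 arrays. Dense against sparse MEM called 4 of the 11 probes (SPINT2, CLDN7 and EPCAM higher, CLDN1 lower), where 19.8% of all probes were called in either direction. Serum amount, dense MEM against low serum, called 5 (ELF3 as well), where 22.3% of all were called. Serum kind, dense MEM against HS, called 3 (SPINT2, CLDN7 and CLDN1), where 21.9% were called. Dense MEM against DMEM called 4, where 20.9% were called, and dense MEM against RPMI-1640 called 5 with CLDN3 among them, where 19.2% were called. DMEM against RPMI-1640 called 0 by limma, with 2 of the 11 at an unadjusted p under 0.05 and 0 by the methods' t-test at P under 0.001, where 5.33% of all probes were called by limma.

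**Figure D2:**
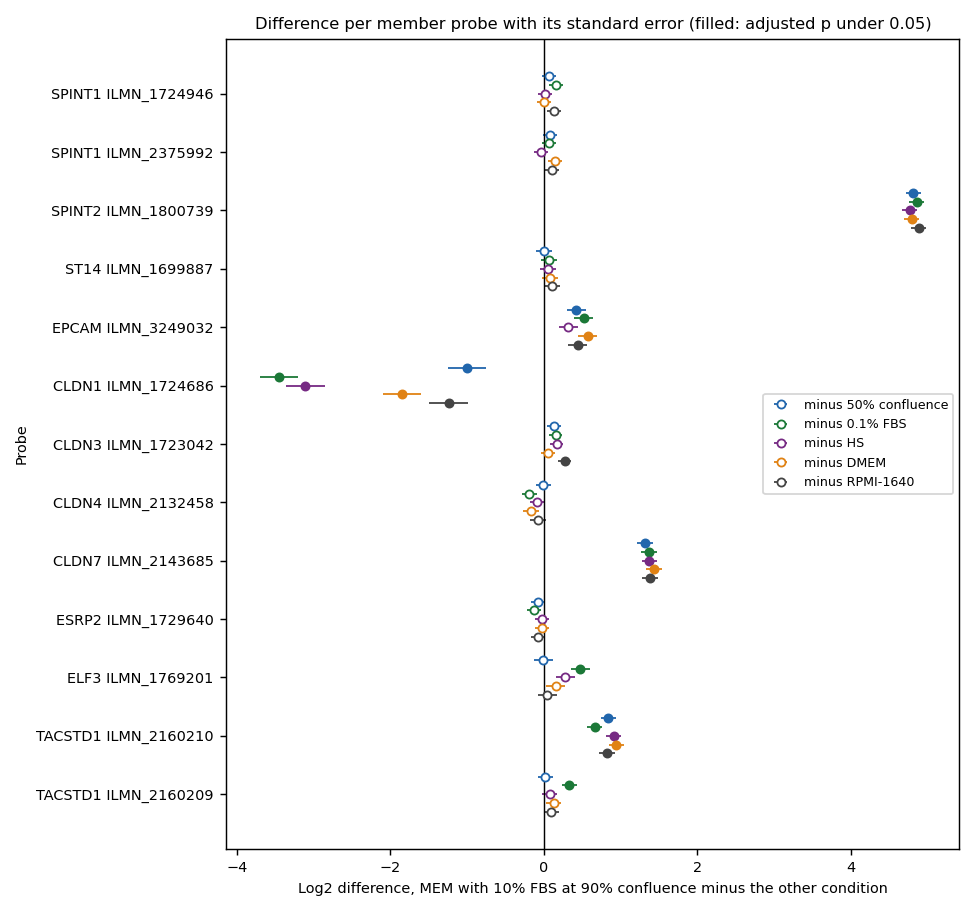
Log2 difference of dense MEM minus each of the other 5 conditions (horizontal axis) with its standard error for the 11 probes and the 2 TACSTD1 probes; filled points have an adjusted p under 0.05. SPINT2 lies at 4.77 to 4.88 in all 5 comparisons, and CLDN1 spreads from -3.45 (low serum) to -1.0 (sparse MEM).

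The genes whose profiles over the 12 arrays lay nearest to the 4 members with the widest spans were looked up, with likeness measured as the root mean square difference of profiles centred on their own mean. For SPINT2 the nearest was FSCN1, the actin-bundling protein fascin, at 0.08, followed by TUBB6, a tubulin, at 0.15 and STMN3, a stathmin, at 0.16. FSCN1 read 12.05 and 11.87 in dense MEM and 7.13 to 7.33 on the other 10 arrays. For CLDN7 the nearest were HSPA2, PNMAL1 and SLCO1B3, at 0.08 each. For EPCAM they were RPL14L at 0.06, MEI1 at 0.08 and KRT18P28 at 0.08, against a span of 0.57 between its condition means.

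For CLDN1 the nearest were P8 (0.24), NUPR1 (0.26) and TRIB3 (0.29). P8 is an older name of NUPR1, a stress-induced chromatin protein, so that both probes stand for 1 gene, and TRIB3 is a pseudokinase induced by amino acid shortage and stress of the endoplasmic reticulum. NUPR1 read 7.24 and 7.32 in dense MEM, 8.07 and 8.21 in sparse MEM, 8.60 and 8.65 in RPMI-1640, 9.55 and 9.54 in DMEM, 10.93 and 10.89 in HS, and 11.33 and 10.07 in low serum. Its first low-serum array was the higher one, as for CLDN1, P8 and TRIB3. The search used these same 12 arrays, so this shared split is part of how the genes were chosen. These are descriptions over 12 arrays of 6 conditions.

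**Figure D3:**
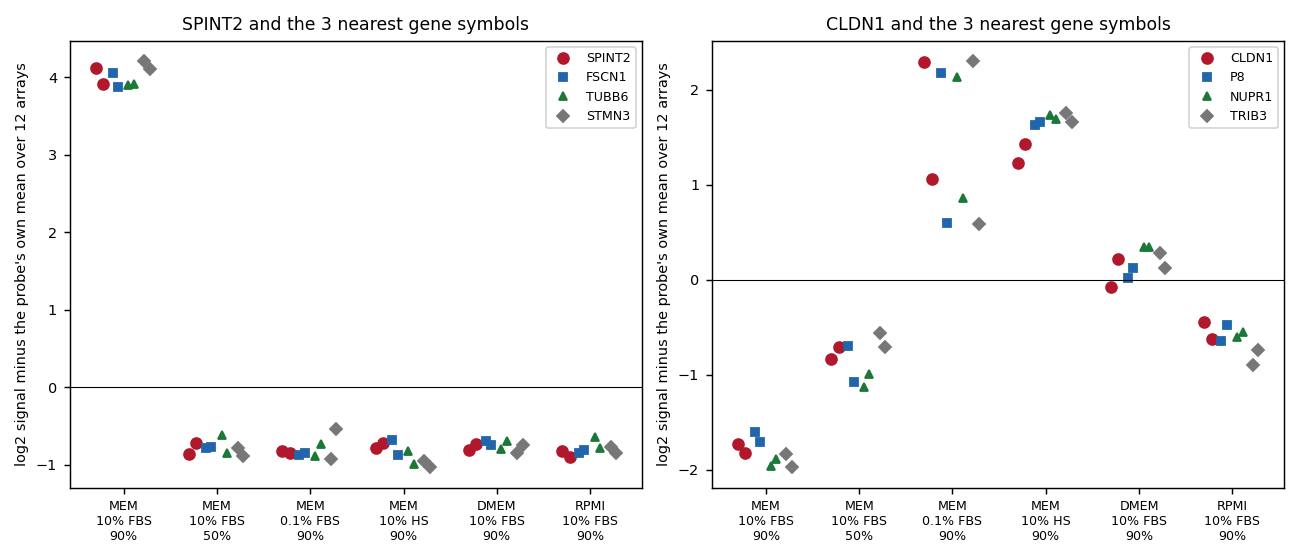
Log2 signal minus the probe's own mean over the 12 arrays (vertical axis) for SPINT2 (left) and CLDN1 (right), each with its 3 nearest gene symbols, by condition; each point is 1 array. The SPINT2 set is high in dense MEM alone, and the CLDN1 set is lowest in dense MEM and highest in HS and in the first low-serum array.

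Other claudins moved in both directions. Of the 17 other claudin genes measured, counted at the brightest probe, 2 were higher and 2 lower in dense than in sparse MEM, where 11.8% of all gene symbols were called higher and 10.8% lower. CLDN11, the claudin of myelin and testis, read 10.50 ± 0.19 (SD, n = 2) in dense MEM and 8.03 to 8.51 in the other conditions, a difference of 1.99 to 2.47. CLDN23 was above background in dense MEM alone, at 7.63, and at least 1.58-fold to 1.64-fold higher than in the other 5 conditions. CLDN15, a claudin of the intestine, was the one that fell in all 5 comparisons, at 7.28 in dense MEM against 9.14 to 9.95, with differences of -1.86 from sparse MEM and -2.66 from low serum. Of its 3 probes, 1 was called against sparse MEM and all 3 against DMEM. CLDN12 was 0.61 higher than in HS and 0.45 higher than in RPMI-1640. CLDN14 differed by -0.54 from low serum, the one comparison in which it was called. The median difference of the 17 was -0.03 against sparse MEM, and -0.01 over all symbols.

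Components of the junction and of cell polarity were mixed as well. Of 14 genes, 2 were higher and 3 lower in dense than in sparse MEM, where 11.8% of all symbols were higher and 10.8% lower. Against low serum 4 were called, all higher, where 13.1% of all symbols were higher and 12.4% lower. MPP5, a polarity scaffold (PALS1), was higher in all 5 comparisons, at 9.27 in dense MEM and 7.87 to 8.14 elsewhere. TJP1, the scaffold ZO-1, was 0.61 higher than in sparse MEM, 0.65 higher than in low serum, 0.44 higher than in DMEM and 0.69 higher than in RPMI-1640, while the difference from HS was -0.06 (adjusted p = 0.85). These calls came from 1 of its 2 probes for sparse MEM, low serum and DMEM and from both for RPMI-1640. CGN, the junction plaque protein cingulin, was called lower in 3 comparisons, with differences of -0.80 from sparse MEM, -0.77 from DMEM and -0.33 from RPMI-1640 (adjusted p = 0.0484). Its differences of 0.24 from low serum (adjusted p = 0.16) and -0.29 from HS (0.0765) were not called. OCLN, occludin, had 4 probes and none was called against sparse MEM or DMEM. Its brightest probe had condition means of 6.59 to 6.88. That probe was above background on at least 1 array each of sparse MEM, HS and RPMI-1640.

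Among 16 genes of the matriptase network, its activating partners, substrates and related membrane proteases, 4 to 6 were above background somewhere in a given comparison. Against HS 2 were higher and 1 lower, where 12.7% of all symbols were higher and 12% lower. Those higher were the substrates PLAU and F2RL1, in all 5 comparisons. PLAU, the urokinase-type plasminogen activator, was at 10.56 ± 0.10 (SD, n = 2) in dense MEM and 6.93 to 7.02 elsewhere, and its differences of 3.54 to 3.62 had adjusted p-values of 1.3e-12 to 1.8e-12. F2RL1, the receptor PAR2, was at 9.87 in dense MEM and 6.65 to 6.90 elsewhere, at least 7.42-fold higher than in HS, and both of its probes were called. MST1, the ligand macrophage-stimulating protein, was lower in all 5 comparisons, at 6.83 in dense MEM and 7.38 to 8.15 elsewhere. Its probe may share signal with near-identical copies of the gene. MET, the receptor of hepatocyte growth factor, was called lower in 3 of the 5, with differences of -0.89 from sparse MEM, -0.56 from low serum and -0.41 from RPMI-1640, and its differences of -0.27 from HS and -0.21 from DMEM were not called. PRSS8, the protease prostasin, was not above background on any array.

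Partners and relatives of EpCAM changed more often than not, in both directions. Of 9 genes, 3 were higher and 5 lower in dense MEM than in DMEM, where 12% of all symbols were higher and 11.9% lower. The median of the 9 was -0.38, and -0.01 over all symbols. Of these 9, 8 were above background somewhere in this comparison, whereas the shares are over all symbols whatever their signal. Against sparse MEM 2 of the 9 were higher and 4 lower, where 11.8% of all symbols were higher and 10.8% lower. CTNNB1, β-catenin, was 0.56 to 1.48 higher at its brightest probe, with 2 of its 7 probes called against sparse MEM and against DMEM. FHL2, which carries the EpCAM intracellular domain signal with β-catenin, was lower at its brightest probe, with differences of -1.70 to -0.61, and 2 of its 4 probes were called against sparse MEM and 1 against DMEM. The tetraspanin CD9 had differences of -1.14 to -0.50, called in all 5 comparisons. ADAM17, a protease that cleaves EpCAM, had differences of -1.77 to -0.94 at its brightest probe, also called in all 5, and both of its 2 probes were called against low serum and HS but 1 of 2 against sparse MEM, DMEM and RPMI-1640.

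Most epithelial transcription and splicing factors were not above background. Of 13 genes, 11 were below it on both arrays of dense MEM and 9 to 11 in the other conditions. Against low serum 1 was lower and 0 were higher, where 12.4% of all symbols were lower and 13.1% higher. Against DMEM 1 was higher and 0 were lower, where 12% were higher and 11.9% lower, and in the other 3 comparisons with dense MEM none was called. ESRP1, the paralog of ESRP2, was at 7.23 ± 0.19 (SD, n = 2) in low serum, above background on both arrays, and at 6.73 in dense MEM (difference -0.49, adjusted p = 0.00596). KLF4, a factor of epithelial differentiation, was 0.81 higher than in DMEM at its brightest probe (adjusted p = 0.00072), and 1 of its 2 probes was called. GRHL2 was not above background on any array.

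Of 11 repressors of epithelial genes, 1 was higher and 2 lower in dense MEM than in RPMI-1640, where 11.2% of all symbols were higher and 10.6% lower. Against low serum 1 was higher and 4 lower, where 13.1% of all symbols were higher and 12.4% lower. ZEB1 was above background in dense MEM alone, at 7.02 ± 0.09 (SD, n = 2) against 6.36 to 6.49, and its differences of 0.53 to 0.67 were called in all 5 comparisons, with a bound of at least 1.03-fold to 1.08-fold. ZEB2 was lower than in low serum, HS, DMEM and RPMI-1640, with differences of -0.88 to -0.48, and its difference of -0.25 from sparse MEM was not called (adjusted p = 0.3). SNAI2 was 0.94 higher than in HS and differed by -0.84 from low serum (adjusted p = 0.0152), where its arrays had an SD of 0.83. Each of these calls came from 1 of its 2 probes. SNAI1 was not above background on any array.

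**Figure D4:**
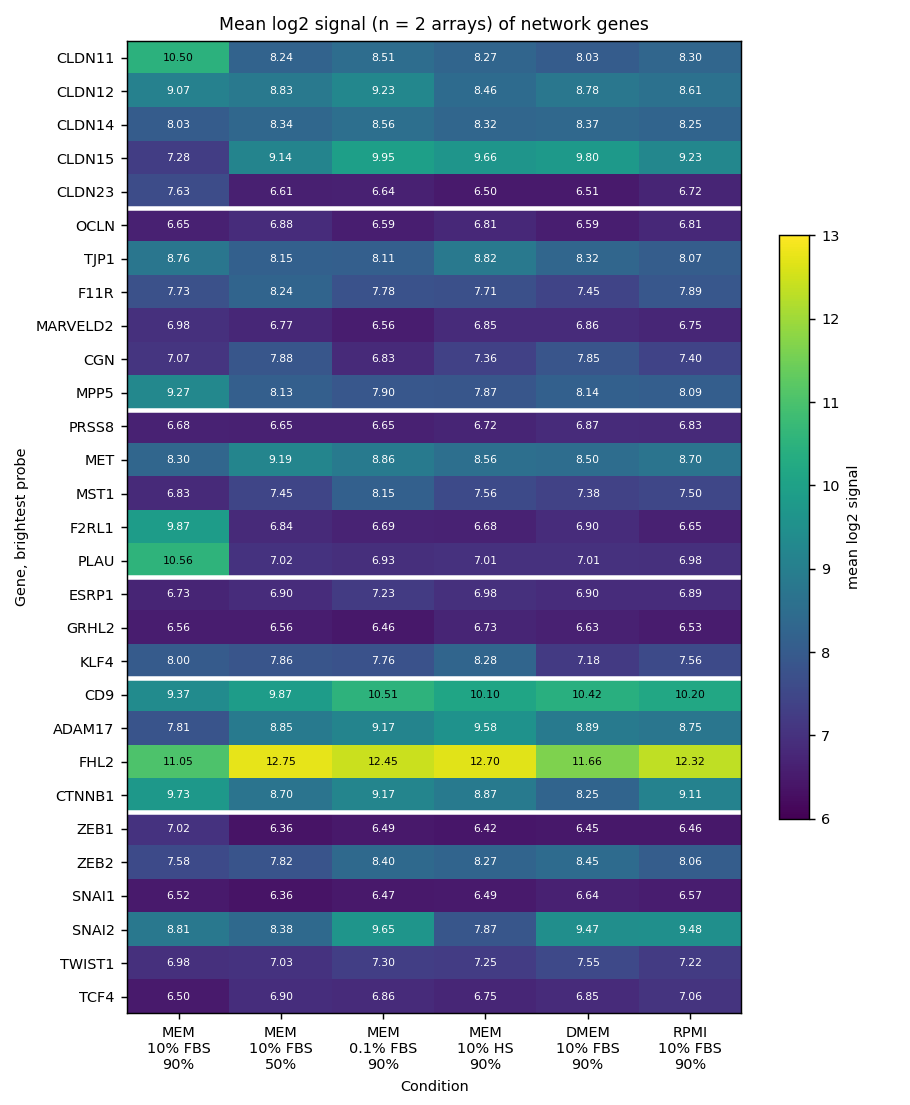
Mean log2 signal (colour and number, n = 2 arrays) of named genes of the 6 lists (rows, brightest probe) in the 6 conditions (columns); white lines part the lists, and background lies at 6.89 to 6.99. PLAU and F2RL1 are bright in dense MEM alone, CLDN15 is dim there, and OCLN, PRSS8, GRHL2 and SNAI1 stay near background throughout.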

How the data were processed

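The authors deposited log2 signals of 47231 probes on 12 Illumina BeadChips, and the same values on a linear scale as signal intensities. Both tables had been quantile-normalized between arrays before they were deposited, although the linear one is named as raw data: repeating the step changed log2 values by at most 0.025. The sources name BeadStudio for the export and limma for the quantile normalization. The log2 table was used as deposited and equals the series table (largest difference 0). The 2 tables differ by over 0.01 at 8 probes, exchanged in pairs. None is a member probe, and VIM was left out of the markers for this reason. Of all probes, 3270 have no symbol. No detection p-value was used, and the number of arrays limits the precision.

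Limma 3.58.1 in R 4.3.3 was fitted to all 12 arrays with 1 mean per condition (6 residual and 8.96 prior degrees of freedom). P-values are two-sided. Within each comparison they were adjusted over all probes (Benjamini-Hochberg), and 0.05 was the threshold. Lists were counted at the brightest probe of each symbol. PMEL was read as SILV and ESRP1 as RBM35A. Members and lists were chosen with earlier results of these data known. All member probes are named. From each list, up to 4 called genes with the largest difference, above background on both arrays of the brighter condition, are named, with ESRP1, PRSS8, OCLN, GRHL2, ZEB1, ZEB2, SNAI1 and SNAI2 whatever their values; some genes that this rule names are not reported here. Promoters came from RefSeq (GRCh38.p14) and were searched in Python 3.11.15, and figures were drawn with matplotlib 3.10.9. Tested on simulated data for the density comparison over 47231 probes, the fit found 45.3% of changes of 1.5-fold (91 of 201), 90% of 2-fold (181 of 201) and 99% of 4-fold (196 of 198), with 18 false calls. Only these few probes were changed in the simulation, whereas 19.8% of all probes were called in the real comparison. The adjustment depends on that share, so the rates found may not carry over. Alternatives were other tables and scalings, other fits and filters, the methods' t-test, a 2-fold limit, the replicate number as a block and leaving out each array.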

Additional observations from a re-analysis of the deposited data

How the results depend on the processing

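The calls on SPINT2 and CLDN7 in the 5 comparisons with dense MEM, and on CLDN1 against low serum, HS, DMEM and RPMI-1640, kept their direction and stayed past the threshold in every limma setting run. No value reversed. Of the values for single member probes under alternatives, 1559 kept their side of the threshold, 26 lost a call and 12 gained one. Fitting the compared groups alone called 5 members for serum kind in place of 3, adding EPCAM and ELF3, and 1 in place of 0 for DMEM against RPMI-1640 (CLDN1). Among the 5 conditions without dense MEM, the F test called 2 members in place of 1 with trend and robust variance and also when only probes above background in at least 1 condition were kept. Leaving both dense MEM arrays out of the fit, an alternative chosen after seeing the data, gave 1 there as before and 0 for DMEM against RPMI-1640. A further limit of 2-fold left 3 of 5 for serum amount and 3 of 5 for RPMI-1640. The methods' t-test at P under 0.001 called 1 member in each of the 5 comparisons with dense MEM, and 0 in each after adjustment; over all probes it called 603 to 804 in these and 35 to 330 after adjustment. Leaving out 1 array at a time gave 2 to 4 members for density, 4 to 5 for serum amount, 3 to 4 for serum kind, 4 to 5 for DMEM, 3 to 5 for RPMI-1640, 0 to 1 for DMEM against RPMI-1640, 3 to 5 for the F test over 6 conditions, 1 to 2 for that over 5, and 3 to 7 called steps between neighbouring condition means in place of 4. The lowest counts came without the second dense or second sparse MEM array for density, without either dense MEM array or the second RPMI-1640 array for RPMI-1640, and without either dense MEM array for the F test over 6 conditions. The highest came without either low-serum array for DMEM against RPMI-1640, without either DMEM array for the F test over 5, and without the second low-serum array for the steps. Leaving out 1 array at a time in the comparisons of low serum and the other conditions with sparse MEM was added after seeing the data. Fits without 1 array have fewer arrays and a spread estimated without the one left out. Some calls were gained at an unchanged difference, as for CLDN1 between DMEM and RPMI-1640 (0.61 without either low-serum array). Otherwise the cause was not tested.

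The replicate numbers do not pair the arrays: over 15 pairs of conditions, the correlation of same-numbered deviations ran from -0.06 to 0.13, with 1 over 0.1. With the replicate block, 1 member call was lost, CLDN3 against RPMI-1640 (0.27, adjusted p = 0.0537), and no other member call in the 6 comparisons changed. Signals near background limit SPINT1, ST14, CLDN3, CLDN4 and ESRP2 in all conditions, and no bound could be given for these genes. Such signals also limit SPINT2 and CLDN7 outside dense MEM, EPCAM in sparse MEM, low serum and DMEM, and ELF3 in low serum. For these last genes and conditions only bounds can be given.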
